A study of Mus musculus with 6 samples.

Results

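The PEA3 group of ETS transcription factors (Etv1, Etv4 and Etv5) and the feedback inhibitors of FGF signalling Spry1, Spry2, Spry4, Spred1, Spred2 and Dusp6 were described in hypothalamic RNA of NS-DADm and WT mice. These 9 genes were taken by symbol from the 24513 genes of the count tables, and all 9 were among the 15894 genes with enough reads to be tested. They were chosen because Etv1 had fallen in this same comparison, and the question was whether the other PEA3 factors and the genes that ERK induces fell with it. Etv1 is therefore described with no test, and the other 8 genes were also chosen with results of these libraries known.

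Each of the 6 libraries came from the whole hypothalamus of 1 mouse of the C57BL/6 strain at 3 to 4 months of age, with 3 NS-DADm mice and 3 WT mice. The labels do not spell out the allele. From what is published of it, the NS-DADm genotype combines knock-in mutations of the deacetylase activating domain in both nuclear receptor corepressors, NCOR1 and SMRT, through which they engage the histone deacetylase HDAC3. Knock-in alleles are present in every cell, so the mutation is not limited to a cell type of the hypothalamus. The labels give neither the sex of the mice nor a batch. Reads on genes numbered 24.2 M to 27.5 M in NS-DADm libraries and 26.5 M to 27.6 M in WT libraries (M, in units of 1e6).

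FGF ligands bind FGF receptors on the cell surface, and the adaptor FRS2 then recruits GRB2 and SOS, which switch on RAS and the kinase chain of RAF, MEK and ERK. ERK phosphorylates PEA3 factors, which bind DNA at sites with a GGAA core, and active signalling also raises transcription of the PEA3 genes and of inhibitors of the same chain. Sprouty and SPRED proteins restrain activation of RAS and RAF, and DUSP6 removes phosphate from ERK, so transcripts of these genes are widely used as readouts of FGF and ERK activity. In brain, the pathway patterns the developing midline and hypothalamus, and in the adult it acts in glia, progenitor cells and neurons.

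The upstream sequences of Etv1, the member that fell, of its relative Etv5 and of the feedback gene Dusp6 are shown as the DNA just before a start of each gene. They are the 250 bases before a RefSeq transcription start, build GRCm38.p6, 5′ to 3′ on the strand of the gene, with each GGAA core in capitals on either strand (TTCC on the other). The Etv1 window is chr12:38779832-38780081 on the plus strand, the Etv5 window is chr16:22438369-22438618 on the minus strand and the Dusp6 window is chr10:99262981-99263230 on the plus strand. None of these windows overlapped an annotated exon of its gene, though the Etv1 and Etv5 windows lie inside the annotated span of the gene.
Etv1: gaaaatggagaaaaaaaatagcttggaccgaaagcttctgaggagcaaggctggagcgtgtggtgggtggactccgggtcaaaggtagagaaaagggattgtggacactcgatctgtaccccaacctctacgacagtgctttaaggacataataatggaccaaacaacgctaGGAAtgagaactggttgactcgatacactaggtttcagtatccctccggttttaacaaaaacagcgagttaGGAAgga
Etv5: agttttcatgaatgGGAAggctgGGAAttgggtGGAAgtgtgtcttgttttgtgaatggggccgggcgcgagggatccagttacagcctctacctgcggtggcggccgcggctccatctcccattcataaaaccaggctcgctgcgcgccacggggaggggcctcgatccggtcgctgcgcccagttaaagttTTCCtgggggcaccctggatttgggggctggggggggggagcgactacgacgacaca
Dusp6: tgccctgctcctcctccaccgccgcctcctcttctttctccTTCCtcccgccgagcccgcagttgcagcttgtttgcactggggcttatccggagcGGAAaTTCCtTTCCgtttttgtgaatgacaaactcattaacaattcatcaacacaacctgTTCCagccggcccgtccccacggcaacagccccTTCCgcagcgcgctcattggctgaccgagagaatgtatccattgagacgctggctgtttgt
The Etv1 window held 2 GGAA cores, the Etv5 window 4 and the Dusp6 window 6, while the windows of a second RefSeq start, not shown because they overlapped annotated exons, held 1 for Etv1 and 0 for Etv5, against a median of 3 over all 32851 RefSeq windows of this length, of which 93.4% held at least 1. The longer ETS sequence CCGGAA, which contains the GGAA core, was in none of the 3 windows shown and in 12.03% of all windows, both strands searched. The exact sequence AGGTCA, a nuclear receptor half-site, was also in none of the 3 and in 14.0% of all. Variants of that half-site were not counted. RefSeq windows were used for 7 of the 9 genes, all but Etv4 and Spry4.

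Etv1 was lower in every NS-DADm library than in every WT library. Etv1 (ER81), a PEA3 factor that helps to specify neuron types, lies on chromosome 12 from 38779380 to 38870484 on the plus strand (mm10). It had 686, 731 and 712 reads in NS-DADm replicates 1, 2 and 3, against 1122, 1113 and 1078 reads in WT replicates 1, 2 and 3. After scaling for library size the NS-DADm libraries had 28.1, 26.5 and 27.1 counts per 1e6 reads (CPM), against 41.0, 40.7 and 40.8 CPM for WT. The groups did not overlap, and the libraries within a group lay close together. NS-DADm mice averaged 27.2 ± 0.81 CPM and WT mice 40.8 ± 0.18 CPM (SD, n = 3 each), a fitted log2 fold change of -0.59 ± 0.06 (SE), a difference of -33.4%. The spread of the WT libraries, 0.43% of their mean, was below the 3.01% that counting noise alone gives at that depth, so the small WT SD is not a measure of how much WT mice vary.

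Etv4 did not follow it past the threshold. Etv4 (PEA3), on chromosome 11 from 101769742 to 101785371 on the minus strand, had 157, 173 and 122 reads in NS-DADm replicates 1, 2 and 3, against 181, 156 and 168 reads in the WT replicates. NS-DADm replicates 1 and 2 lay within the WT range in CPM, and replicate 3 was the lowest of all. NS-DADm mice averaged 5.78 ± 0.99 CPM and WT mice 6.23 ± 0.47 CPM, with a log2 fold change of -0.11 (95% interval -0.40 to 0.18; edgeR quasi-likelihood test, Benjamini-Hochberg (BH) adjusted p = 0.85 over all genes tested). At this depth the interval allows a fold of 0.757 to 1.14, so a moderate fall of Etv4 cannot be told from none.

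Etv5 had a positive fitted value that did not pass. Etv5 (ERM), on chromosome 16 from 22381309 to 22439719 on the minus strand, had 932, 1294 and 1231 reads in the NS-DADm replicates, against 1035, 1052 and 1063 reads in the WT replicates. In CPM the NS-DADm replicates had 38.1, 46.8 and 46.8, against 37.8, 38.4 and 40.3 for WT. NS-DADm replicates 2 and 3 were above every WT library, whereas NS-DADm replicate 1 lay among them. NS-DADm mice averaged 43.9 ± 5.0 CPM and WT mice 38.8 ± 1.3 CPM (log2 fold change 0.18, 95% interval 0.01 to 0.35; edgeR, BH adjusted p = 0.43). Without NS-DADm replicate 1 the log2 fold change was 0.27, still not past the threshold (edgeR, BH adjusted p = 0.099).

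**Figure D1:**
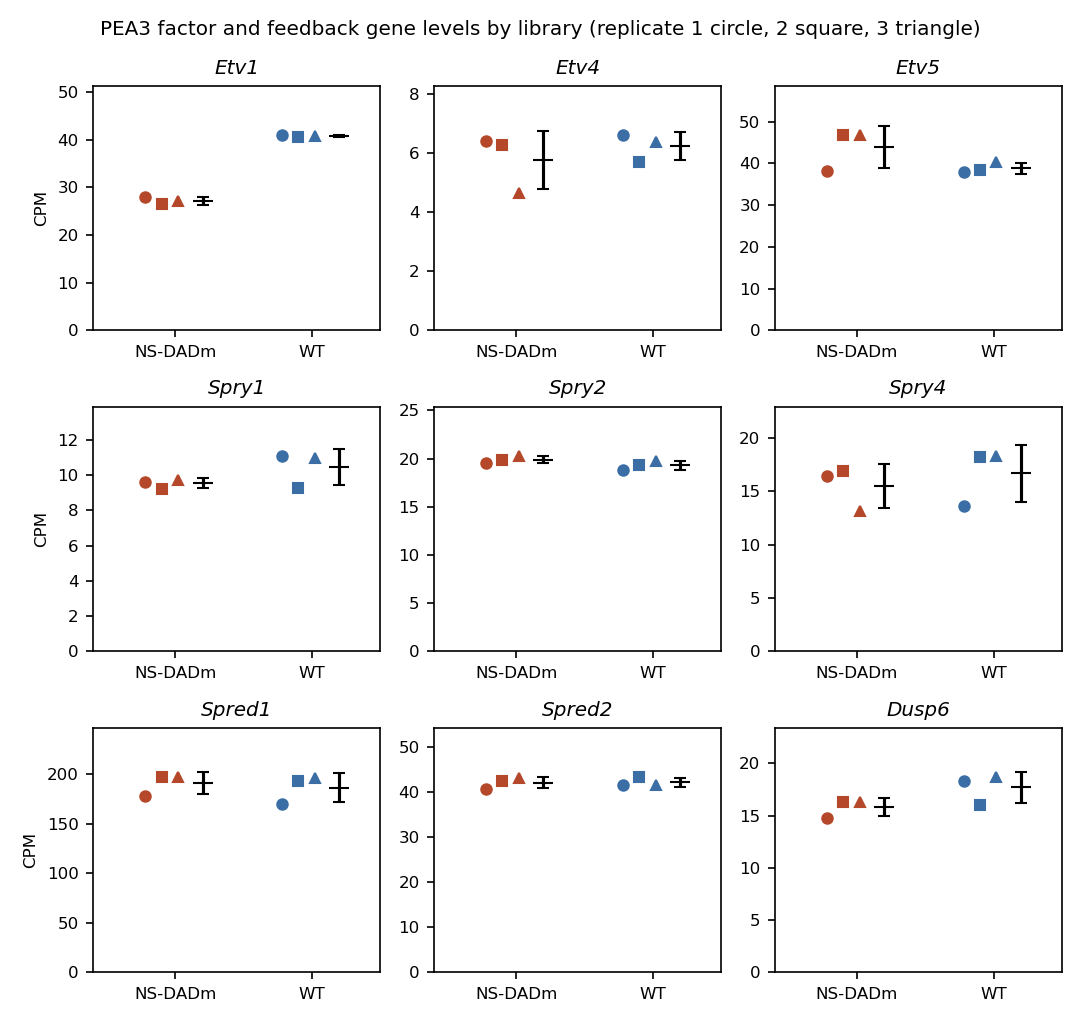
Level in CPM (vertical axes, each starting at 0) of the 9 genes in 3 NS-DADm and 3 WT libraries, with 1 symbol per replicate and the mean with SD as a black mark beside each group. Etv1 is at 26.5 to 28.1 CPM in the NS-DADm libraries, against 40.7 to 41.0 CPM for WT, and the groups overlap for each of the other genes.

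Within the PEA3 group, Etv1 made up less of the total in every NS-DADm library than in every WT library. The ratio of Etv1 to Etv5 reads was 0.736, 0.565 and 0.578 in NS-DADm replicates 1, 2 and 3, against 1.08, 1.06 and 1.01 in the WT replicates. Etv1 made up 33.3 to 38.6% of the summed CPM of Etv1, Etv4 and Etv5 in NS-DADm libraries and 46.7 to 48.0% in WT libraries. That sum ran from 72.6 to 79.6 CPM for NS-DADm and from 84.8 to 87.5 CPM for WT. These values contain the fall that led to the choice of the genes, so they describe it and do not test it.

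The Sprouty genes, whose proteins are induced by and restrain receptor tyrosine kinase signalling, did not pass the threshold in either direction. Spry1 had 9.61, 9.20 and 9.74 CPM in NS-DADm replicates 1, 2 and 3, against 11.1, 9.28 and 11.0 CPM in WT replicates 1, 2 and 3. WT replicate 2 lay among the NS-DADm libraries while the other WT libraries were higher. Its log2 fold change was -0.13 (95% interval -0.35 to 0.08; edgeR, BH adjusted p = 0.69). Spry2 had 19.6, 19.8 and 20.3 CPM in NS-DADm replicates, against 18.8, 19.4 and 19.7 CPM in WT replicates. Its libraries were the closest together of the Sprouty genes, with a log2 fold change of 0.04 (95% interval -0.10 to 0.19; edgeR, BH adjusted p = 0.89). Spry4 had 16.5, 16.9 and 13.2 CPM in NS-DADm replicates, against 13.6, 18.2 and 18.3 CPM in WT replicates. It varied within each group, with an SD of 13.2% of the mean for NS-DADm and 16.0% for WT, and its log2 fold change was -0.11 (95% interval -0.39 to 0.18; edgeR, BH adjusted p = 0.84). It was -0.64 with the mean level of thalamus markers as a covariate, not past the threshold (edgeR, BH adjusted p = 0.37). It ran from -0.23 without WT replicate 1 to -0.003 without NS-DADm replicate 3.

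The Spred genes had the fitted values closest to 0 of the 9, with overlapping groups. Spred1, an inhibitor of RAS activation that works with neurofibromin, had 178, 197 and 198 CPM in NS-DADm replicates 1, 2 and 3, against 170, 193 and 196 CPM in the WT replicates. The lowest library of each group was replicate 1, and the groups overlapped (log2 fold change 0.03, 95% interval -0.10 to 0.17; edgeR, BH adjusted p = 0.91). Spred2, which has a similar role, had 40.7, 42.5 and 43.1 CPM in NS-DADm replicates, against 41.5, 43.4 and 41.6 CPM in WT replicates. Its log2 fold change was -0.002 with a 95% interval of -0.12 to 0.12 (edgeR, BH adjusted p = 1.00), which bounds its fold between 0.919 and 1.09.

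Dusp6, the ERK phosphatase whose transcript is a widely used readout of FGF activity, had a negative fitted value that did not pass. It had 14.8, 16.3 and 16.3 CPM in NS-DADm replicates 1, 2 and 3, against 18.4, 16.0 and 18.7 CPM in WT replicates 1, 2 and 3. WT replicates 1 and 3 were above every NS-DADm library, and WT replicate 2 lay below the highest of them. NS-DADm mice averaged 15.8 ± 0.87 CPM and WT mice 17.7 ± 1.4 CPM (log2 fold change -0.16, 95% interval -0.34 to 0.02; edgeR, BH adjusted p = 0.53). The fold is bounded between 0.789 and 1.01, which leaves room for a fall of Dusp6 smaller than the one seen for Etv1.

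**Figure D2:**
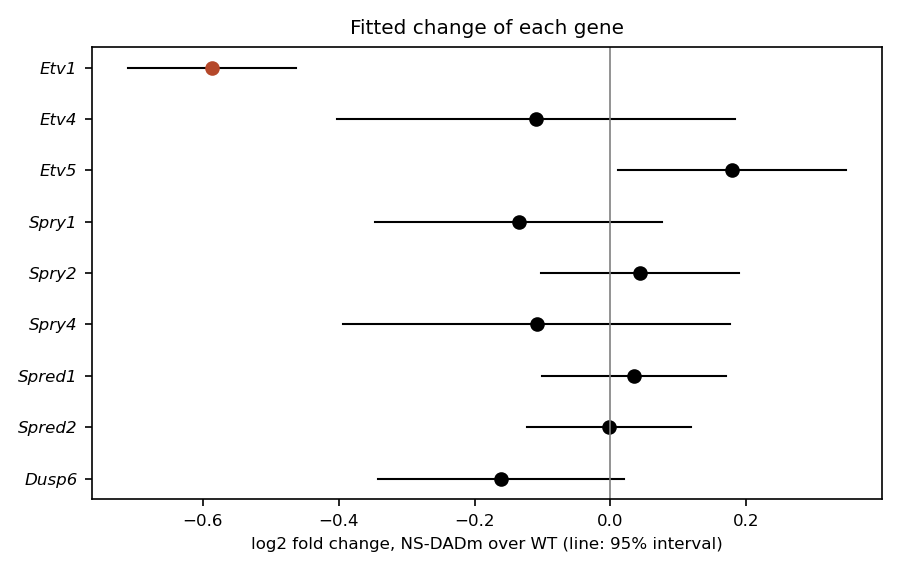
Fitted log2 fold change of NS-DADm over WT (horizontal axis) for each gene, with points for the fit and lines for the 95% interval. Etv1, shown in red because its fall led to the choice of the genes, is at -0.59, and the intervals of the other 8 genes lie above that value, the lowest bound being -0.40 for Etv4.

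Of the 9 genes 1 was called, Etv1, where 0.654% of all 15894 genes tested were called in either direction and 0.573% were called lower in NS-DADm mice. The groups did not overlap for 1 of the 9, again Etv1, against 16.8% of all genes tested. Because Etv1 was chosen on this comparison, nothing is read from these counts. The fitted values of the 8 other genes ran from -0.16 to 0.18 on the log2 scale, and the median over all genes tested was 0.004. Of the 8, Etv5 alone had an unadjusted p under 0.05 in edgeR, where 10.9% of all genes tested had such a p. None of the 8 was past the threshold in any of the 16 alternative fits, DESeq2 and limma included, their smallest BH adjusted p there being 0.099.

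Levels between genes were compared per kilobase of annotated exon. In both groups Spred1 was highest, at 28.2 ± 1.6 CPM per kb (NS-DADm) and 27.5 ± 2.1 CPM per kb (WT). Etv5, Spry2 and Spred2 followed, at 10.7 ± 1.2, 9.53 ± 0.17 and 9.11 ± 0.27 CPM per kb for NS-DADm, against 9.47 ± 0.31, 9.25 ± 0.23 and 9.13 ± 0.23 CPM per kb for WT. In WT these neighbours lay within about their SDs of each other, and so could not be ordered. Dusp6 came next, at 5.05 ± 0.28 CPM per kb (NS-DADm) and 5.65 ± 0.46 CPM per kb (WT). Spry1 and Spry4 stood close together below it, at 3.27 ± 0.098 and 3.26 ± 0.43 CPM per kb for NS-DADm, against 3.60 ± 0.35 and 3.52 ± 0.56 CPM per kb for WT. Etv1 was at 2.05 ± 0.061 CPM per kb (NS-DADm) and 3.07 ± 0.013 CPM per kb (WT). Etv4 was at 1.86 ± 0.32 CPM per kb (NS-DADm) and 2.01 ± 0.15 CPM per kb (WT). The difference between Etv1 and Etv4 was within the SD of Etv4 in NS-DADm mice and beyond it in WT mice, and in WT mice Etv1 lay within the SD of Spry4. The Etv1 figure rests on an exon length of 13296 bases over 13 annotated transcripts, which understates its level if the long forms are not used.

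The 3 PEA3 genes shared no 50-base stretch of transcript with each other, so an exact match of that length could not carry reads between them. For Etv5, 24.5% of such stretches also lay in Gm4798, and for Etv1, 9.08% lay in transcripts of other genes, 382 in number. For Spry1, 21.8% lay in the overlapping gene Gm42922. Reads there may have been left out as not unique or as ambiguous.

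The neighbouring thalamus can be taken along when hypothalamus is dissected, and its markers had lower sums in the libraries in which Etv1 was lower. All 15 listed markers had fitted values below 0 and 6 of them passed the threshold. Of all 15894 genes tested, 7686 were fitted below 0 and 0.573% were called lower. The markers were listed with earlier results of these data known, so their counts describe them and do not test them. The summed level of the 15 markers was 1076 to 1211 CPM for NS-DADm, against 1452 to 2070 CPM for WT, with none at 0. Among WT libraries this sum differed 1.43-fold between the highest and the lowest, while Etv1 differed 1.01-fold, a spread below its counting noise. The log2 level of Etv1 had r = 0.92 with the mean log2 level of the markers over the 6 libraries, which form 2 sets by genotype, and r = 0.49 with the group means removed. With the mean log2 level of these markers as a covariate, Etv1 had a log2 fold change of -0.54 ± 0.14 (SE), against -0.59 ± 0.06 (SE) without it. In that fit Etv1 was no longer past the threshold. Its fall led to its choice, so passing or not is no test of it. The marker mean and the group are close to each other (r = -0.91 over the 6 libraries), so what remains of the group difference is poorly measured in that fit. In bulk tissue, fewer cells of a type and less RNA per cell cannot be told apart.

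**Figure D3:**
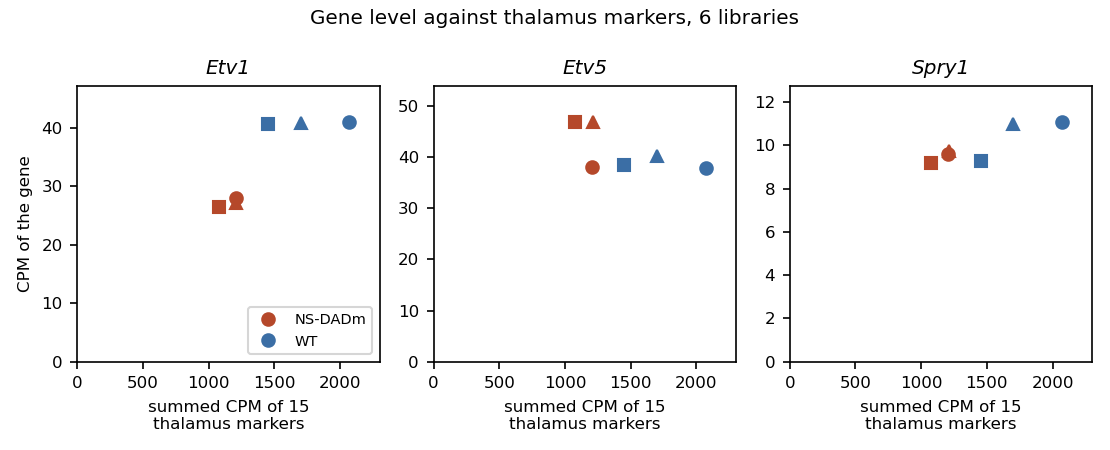
CPM of Etv1, Etv5 and Spry1 (vertical axes) against the summed CPM of 15 thalamus markers (horizontal axis), 1 point per library, NS-DADm in red and WT in blue, with the same symbols by replicate. Etv1 lies at 40.7 to 41.0 CPM in WT libraries, a spread below its counting noise, while their marker sum runs from 1452 to 2070 CPM.

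Other marker lists also moved in part with the groups, and their part in the Etv1 result was not tested. Of all 15894 genes tested, 7686 were fitted below 0 and 8208 above 0. Of the same genes 0.573% were called lower and 13 genes were called higher. Endothelial markers had 8 of 10 fitted values below 0 and 0 called, with sums of 196 to 215 CPM for NS-DADm, against 220 to 260 CPM for WT. Microglia markers, with 6 of 10 below 0 and 0 called, summed to 296 to 309 CPM for NS-DADm, against 312 to 323 CPM for WT. Mature oligodendrocyte markers had 11 of 12 below 0 and 1 called, with overlapping sums of 4651 to 5344 CPM for NS-DADm, against 5308 to 5728 CPM for WT. The sums of astrocyte, oligodendrocyte precursor, cerebral cortex, and tanycyte and ependymal markers overlapped between the groups. Anterior pituitary markers stood at 2079 CPM in NS-DADm replicate 2, beside 245 to 261 CPM in the other NS-DADm libraries and 82.7 to 156 CPM for WT, and without that library the log2 fold change of Etv1 was -0.57. Hypothalamus markers were present in every library, with 15 of 15 tested and sums of 747 to 880 CPM for NS-DADm and 728 to 786 CPM for WT. Of these markers 12 were fitted above 0 and 3 below, with 1 called higher (Trh). Their log2 fold changes ran from -1.08 to 0.57, with a median of 0.19. At an unadjusted p under 0.05 (edgeR), 5 were higher and 1 lower, against 10.9% of all genes tested in either direction. Without WT replicate 2 edgeR called 2 higher and 1 lower.

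Upstream of ERK, no FGF ligand or receptor gene was called by edgeR with all 6 libraries, the count filter and no replicate block. At an unadjusted p under 0.05, 1 ligand gene was higher and 1 lower, and 2 receptor or co-receptor genes were higher and 1 lower. Of all genes tested, 10.9% had such a p in either direction. Of 18 secreted FGF ligands 10 had enough reads to be tested, with a median log2 fold change of 0.07. Fgf10, a ligand made by some tanycytes, had 5.24, 5.86 and 5.63 CPM in NS-DADm replicates 1, 2 and 3, against 6.98, 7.60 and 7.46 CPM in WT replicates. The groups did not overlap, as for 16.8% of all genes tested, and its log2 fold change of -0.40 ± 0.11 (SE) did not pass (edgeR, BH adjusted p = 0.13). Fgf23, a hormone-like FGF, had log2 0.49 ± 0.20 (SE) on 31 to 52 reads per library, and Fgf2 had 0.41 ± 0.21 (SE), neither past the threshold (edgeR, BH adjusted p = 0.40 and 0.53).

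Among 6 tested FGF receptor and co-receptor genes the median log2 fold change was 0.04. Fgfr2, a receptor expressed in oligodendrocytes and astrocytes, had 50.2, 42.9 and 40.9 CPM in NS-DADm replicates, against 56.2, 56.3 and 51.8 CPM in WT replicates. Its log2 fold change of -0.30 ± 0.07 (SE) missed the threshold (edgeR, BH adjusted p = 0.11). It was past it with the DESeq2 Wald test (adjusted p = 0.029), with no count filter (edgeR, 0.037) and without NS-DADm replicate 1 (edgeR, 0.030). Fgfr2 was also past the threshold in edgeR with the replicate number as a block. Of the mature oligodendrocyte markers 11 of 12 also had fitted values below 0, with sums that overlapped between the groups. A link between these markers and Fgfr2 was not tested. Fgfr1, a receptor of neurons and progenitors, had 0.10 ± 0.05 (SE) on the log2 scale and Kl, the co-receptor klotho, 0.20 ± 0.09 (SE), with groups that did not overlap for either (edgeR, BH adjusted p = 0.45 and 0.43). With Fgfr2, groups did not overlap for 3 of the 6, against 16.8% of all genes tested. The list was written with earlier results of these data known, so this count describes it and does not test it.

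The relay between receptor and ERK gave no call. All 25 listed genes were tested and 0 were called, with fitted log2 fold changes of -0.09 to 0.16 and a median of 0.02. At an unadjusted p under 0.05 (edgeR), 3 were higher and 0 lower in NS-DADm mice, where 10.9% of all genes tested had such a p in either direction, and DESeq2 also called 0. The smallest p-values were those of the kinase gene Rps6ka2 (log2 0.12 ± 0.04 SE), the scaffold gene Ksr2 (0.15 ± 0.06 SE) and the adaptor gene Frs3 (0.16 ± 0.06 SE), none past the threshold (edgeR, BH adjusted p = 0.33, 0.33 and 0.35).

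Further feedback genes gave 0 calls among 6 tested of 7 listed (median log2 fold change -0.08), and 0 were called by DESeq2. At an unadjusted p under 0.05 (edgeR), 2 were lower, against 10.9% of all genes tested in either direction. Dusp5, a nuclear ERK phosphatase, had a log2 fold change of -0.69 ± 0.30 (SE) on 15 to 48 reads per library, and Dusp7, a cytoplasmic one, had -0.15 ± 0.07 (SE), both with overlapping groups (edgeR, BH adjusted p = 0.43 and 0.45). Dusp9, a further cytoplasmic one, had 0.29 ± 0.25 (SE) on 17 to 23 reads per library (edgeR, BH adjusted p = 0.76). Spred3, Il17rd and Dusp4 had -0.02, 0.09 and -0.14. Spry3 had 0 reads in every library.

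Of 4 other transcripts used as readouts of ERK output, 1 was called lower in the main fit, where 0.573% of all genes tested were. Epha4, an ephrin receptor of axon guidance, measured 87.6, 82.0 and 85.8 CPM in NS-DADm replicates 1, 2 and 3, against 112, 99.3 and 105 CPM in WT replicates. The groups did not overlap, as for 16.8% of all genes tested, and its log2 fold change was -0.31 ± 0.06 (SE; edgeR, BH adjusted p = 0.027). The call was lost against a minimum fold of 1.2 and without NS-DADm replicate 1, 2 or 3 or WT replicate 3 (edgeR, BH adjusted p = 0.051, 0.19, 0.18 and 0.11), and with the thalamus marker mean as a covariate its log2 fold change was -0.06 (edgeR, BH adjusted p = 0.90). Ccnd1, the cyclin of early G1, had 0.03, Phlda1 -0.08 and Epha2 -0.21, none past the threshold.

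Other ETS factor genes gave 0 calls among 16 tested of 23 listed, with a median log2 fold change of 0.006. At an unadjusted p under 0.05 (edgeR), 1 was lower, against 10.9% of all genes tested in either direction. DESeq2 also called 0. Ets1, a factor of endothelial and lymphoid cells, had 12.03, 10.03 and 9.39 CPM in NS-DADm replicates, against 13.7, 12.5 and 12.9 CPM in WT replicates (-0.31 ± 0.10 SE on the log2 scale; edgeR, BH adjusted p = 0.24). The endothelial markers above had lower sums in the same libraries, and a link between them and Ets1 was not tested. Etv6, a repressor, had -0.18 ± 0.09 (SE), and Ets2, the close relative of Ets1, 0.09 ± 0.08 (SE; edgeR, BH adjusted p = 0.48 and 0.76).

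Immediate early genes, which ERK and calcium signals induce within minutes, spread widely between libraries of a group. None of 11 was called (median log2 fold change -0.21), and DESeq2 called 0. At an unadjusted p under 0.05 (edgeR), 1 was lower, against 10.9% of all genes tested in either direction. Without WT replicate 1 edgeR called 1, Fosb (log2 fold change -0.80, edgeR BH adjusted p = 0.037). Ier2 had 2.78, 2.24 and 2.05 CPM in NS-DADm replicates, against 3.77, 3.11 and 3.71 CPM in WT replicates (-0.58 ± 0.16 SE on the log2 scale; edgeR, BH adjusted p = 0.16). Fosb and Junb had log2 fold changes of -0.52 ± 0.31 (SE) and -0.35 ± 0.22 (SE), with overlapping groups (edgeR, BH adjusted p = 0.62 and 0.65).

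**Figure D4:**
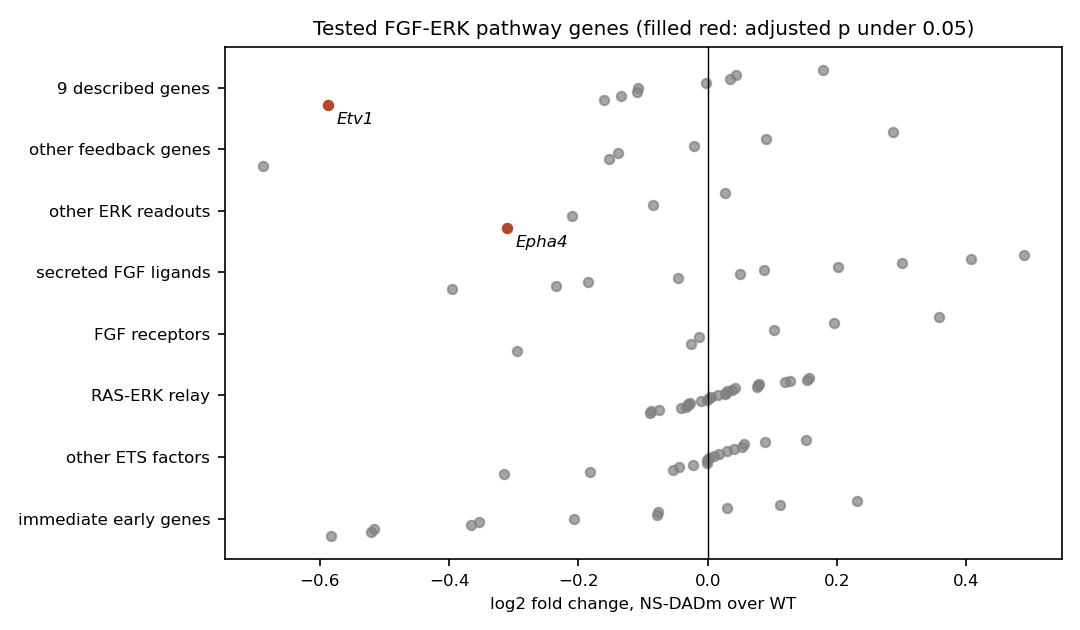
Fitted log2 fold change of NS-DADm over WT (horizontal axis) for each tested gene of the pathway lists (rows), 1 point per gene, red where the BH adjusted p was under 0.05. Etv1 and Epha4 are the red points, and the 25 relay genes lie between -0.09 and 0.16. The fall of Etv1 led to the choice of the genes, so its colour describes it and is not a test.

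Likeness to Etv1 was measured for 14525 other genes that averaged 1 CPM or more. Those whose log2 CPM ran most like that of Etv1 over the 6 libraries were Slc24a3 (Pearson r = 0.997), Prox1 (0.995), Chrdl1 (0.994), Fjx1 (0.993) and Pcdhgc3 (0.990). Since the libraries of Etv1 fall into 2 separate sets by genotype, these values mostly reflect lower means of the 5 genes in NS-DADm mice. Prox1, a homeobox transcription factor, averaged 24.4 CPM (NS-DADm) and 30.7 CPM (WT), and Fjx1, the homologue of fly four-jointed, averaged 26.1 CPM (NS-DADm) and 35.4 CPM (WT). With the group means removed, r was 0.973 for Slc24a3 and 0.989 for Chrdl1 and 0.345, -0.089 and -0.16 for Prox1, Fjx1 and Pcdhgc3. The spread of Etv1 within groups was below its counting noise (0.43% against 3.01% for WT, 2.975% against 3.75% for NS-DADm). No shared variation is therefore read from these r values. Genes most like Etv5 included Elovl2 (0.997), 4933421O10Rik (0.988), Mdk (0.986) and Ispd (0.982), and for these r was 0.969 to 0.994 with the group means removed. Genes like Etv1 or Etv5 were picked for high r over these same 6 libraries, so the values describe them and do not test them. Elovl2, an elongase of polyunsaturated fatty acids, averaged 18.1 CPM (NS-DADm) and 14.7 CPM (WT), and was not past the threshold (edgeR, BH adjusted p = 0.39).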

How the data were processed

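RNA was sequenced from the hypothalamus of 3 NS-DADm and 3 WT mice, 1 library per mouse. The deposited values were raw read counts per gene symbol. Alignment to mm10 used TopHat2 2.0.9 and counting used HTSeq, per the submitters' processing notes. For the annotation and strand setting, which bear on overlapping genes, no value is given in the sources used here. Unassigned reads, in 5 rows per table (28.7 to 31.2% of entries), were kept out.

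The edgeR 4.0.16 quasi-likelihood test (R 4.3.3) was run without covariates on genes kept by filterByExpr, with TMM factors of 0.992 to 1.01. A gene was called at a BH adjusted p under 0.05 over all genes tested. The 95% intervals use the standard error that the F statistic implies. The value 0.5 was added to CPM before log2 for marker means and likeness. DESeq2 1.42.0 and limma 3.58.1 served as alternatives. Lengths and positions came from GENCODE of the same build, with an exon length for 95.4% of symbols, and upstream sequences from RefSeq. The fit was tested on simulated data. Within groups, libraries differed by 3.41 to 10.4 times counting noise (chi-square per degree of freedom).

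The members and lists were chosen with earlier results of these data known. Named genes were all 9 members, called genes of each pathway list or else the 3 with the smallest p, and the 5 genes most like Etv1 and Etv5; others were named after their values were seen. A gene that this rule names is not reported here.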

Additional observations from a re-analysis of the deposited data

How the results depend on the processing

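The log2 fold change of Etv1 stayed between -0.61 and -0.54 over the 16 alternatives, and without 1 library between -0.61 and -0.57. With the thalamus marker mean as a covariate it was -0.54 and 0 of the 9 genes were called, against 1 in each other fit. That 1 was Etv1, which was chosen on this comparison, so nothing is read from these counts. With the covariate Etv4 had 0.061, Spry1 0.21, Spred1 -0.21 and Dusp6 0.027, each opposite in sign to the fit without it, and the cause was not tested. Spry4 moved there to -0.64. Spred2 also changed sign, to 0.011 with library size alone and to 0.0094 with upper-quartile factors. Leaving out 1 library, Spred2 ran from -0.019 to 0.024, Etv4 from -0.19 to 0.026 and Spred1 from -0.025 to 0.084, while Spry4 ran from -0.23 (without WT replicate 1) to -0.003 (without NS-DADm replicate 3) and Spry1 from -0.21 (without WT replicate 2) to -0.087 (without WT replicate 1). The number of genes called in all, 104, was 282 with DESeq2, 203 with no count filter, 8 against a minimum fold of 1.2 and 14 with the covariate. It ran from 5 to 312 without 1 library, being 312, 262 and 10 without WT replicate 1, 2 or 3 and 5 and 8 without NS-DADm replicate 2 or 3. Same-numbered libraries deviated from their group means with r = 0.22, 0.13 and -0.018, and 4 of the 6 correlated best with their own number. The labels name no batch, and the numbers were not taken as pairs in the main fit. Whether same-numbered libraries share a batch was not tested. With the replicate number as a block, 409 genes were called, and Etv1 kept a log2 fold change of -0.59, while no other member was called, and Fgfr2 was called lower (edgeR, BH adjusted p = 0.012). Depth limits Etv4 most, with 122 to 181 reads per library.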
